A study of Mus musculus with 54 samples.

Results

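In R1 mouse embryonic stem cells differentiating in retinoic acid, 348 genomic regions kept their openness within 2-fold from day 0 to day 2 and were at least 2-fold less open at days 4, 10 and 20. They are 348 of the 170884 autosomal regions (0.204%) in the authors' table of chromatin openness, which lists 174059 regions in all. Regions were chosen by their deposited openness, and a region was taken where this was 1 or more at both early days. In addition, with 0.1 added to every value, the smaller of days 0 and 2 had to be at least 2 times the largest of the 3 later days, and days 0 and 2 had to lie within 2-fold of each other. The same openness values chose the regions and describe them below, so their course over the days is a description and carries no test. The ratio of the smaller early value to the largest later value, with 0.1 added, is called the closing ratio.

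All groups are of the R1 line, an established mouse embryonic stem cell line, with no engineered allele named in the labels. Per the labels, the cells grew with 15% serum replacement and 1000 U/ml of LIF, a cytokine that maintains self-renewal. They were aggregated in hanging drops for 48 h and then received retinoic acid, labelled as 0.5 mM, for up to 20 days. The RNA libraries number 22, with 7, 3, 3, 5 and 4 on days 0, 2, 4, 10 and 20. The ATAC libraries number 32 (7, 6, 9, 4 and 6 by day), but the openness table gives 1 value per region and day, so openness has no replicates here. The labels leave unsaid whether libraries of the same day are separate cultures, and whether day 0 preceded aggregation. The p-values given for RNA therefore measure only the spread between these libraries, which may be technical.

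ATAC-seq marks DNA that the Tn5 transposase can reach, which is mostly promoters, enhancers and insulators where transcription factors keep nucleosomes away. In embryonic stem cells many distal elements are held open by pluripotency factors such as OCT4, SOX2 and NANOG, and elements close when their factors are lost and nucleosomes form over them. Retinoic acid acts through nuclear receptors and directs aggregates of these cells towards neural fates. In bulk samples such as these, fewer cells with an open region and less openness per cell cannot be told apart. The coordinates below are those of the mm9 build, counted from 1. No annotation or sequence of that build was used here, so whether a region lies in a gene, exon or intron was not analysed.

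Across the 348 regions the median openness was 2.53 at day 0 (quartiles 1.98 and 3.19) and 2.02 at day 2 (quartiles 1.62 and 2.59). Later it was 0.770, 0.631 and 0.612 on days 4, 10 and 20. The full ranges were 1.11 to 9.85 and 1.02 to 6.86 on days 0 and 2, and 0.312 to 3.16, 0.127 to 2.55 and 0.207 to 2.18 on days 4, 10 and 20. Ranges of early and late days thus overlap between regions, although within each region the days are apart by construction. The median over all autosomal regions lay between 1.215 (day 2) and 1.236 (day 20), with little movement between days. Ranked among the autosomal regions of the same day, the median closing region stood at percentiles 86.4 and 78.1 on days 0 and 2 and at 21.9, 11.9 and 10.7 on days 4, 10 and 20. At all 3 late days 301 of the 348 (86.5%) were below that day's autosomal median, as were 23.4% of all autosomal regions. Closing here means a lower value and not a shut region: 95 of the 348 (27.3%) still had openness of 1 or more on at least 1 late day.

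**Figure D1:**
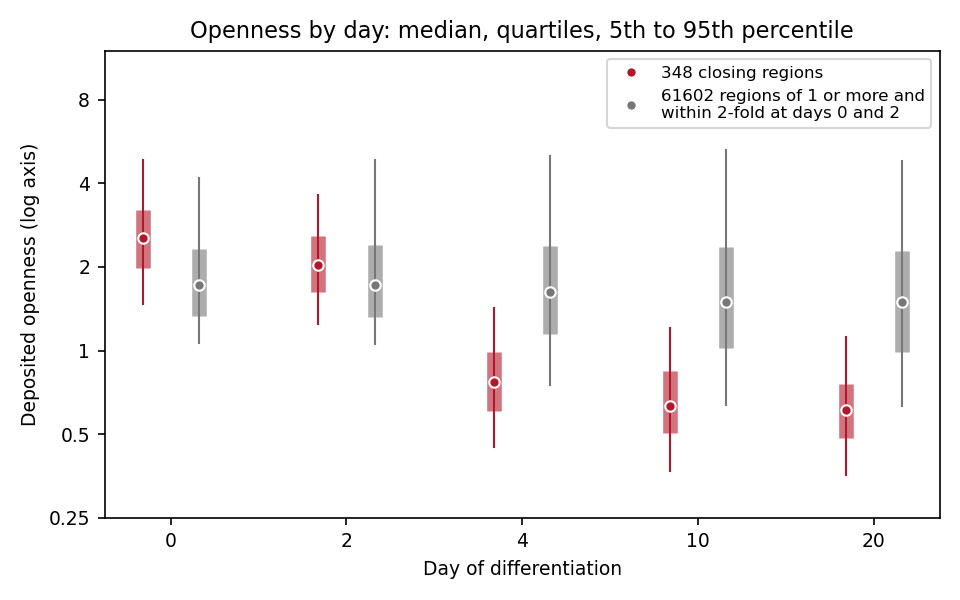
Deposited openness (log axis) by day for the 348 closing regions (red) and the 61602 autosomal regions of 1 or more and within 2-fold at days 0 and 2 (grey). Points are medians, boxes quartiles and lines the 5th to 95th percentile over regions. The red medians stand at 2.53 and 2.02 on the early days and at 0.770 or lower afterwards, while the grey medians stay between 1.49 and 1.73.

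The region with the largest closing ratio, chr7:97717467-97718402, had openness 6.35 at day 0 and 3.62 at day 2. At days 4, 10 and 20 it stood at 0.802, 0.754 and 0.607, a closing ratio of 4.12. It was the only one of the 348 with a ratio of 4 or more. The short region chr5:94177789-94178052 had values of 2.93, 1.96, 0.447, 0.372 and 0.434 at days 0, 2, 4, 10 and 20, a ratio of 3.76. Its 3 late values lie close together, so its late level was already reached at day 4. At chr3:159444785-159445908 the values were 3.97, 3.13, 0.831, 0.853 and 0.682 (ratio 3.39), again with little difference among the late days.

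Some regions with large ratios were at least as open at day 2 as at day 0. At chr13:75853471-75853670 openness was 2.201 at day 0 and 2.48 at day 2, then 0.593, 0.576 and 0.293 at days 4, 10 and 20. At chr10:32915635-32916463 it was 1.76 at day 0 and 2.46 at day 2, then 0.415, 0.467 and 0.491. This region had the largest ratio of day 2 to day 4 of all 348, at 4.97, with 0.1 added. At chr9:111627322-111628798 days 0 and 2 were alike, at 2.99 and 2.93, and the later values were 0.831, 0.595 and 0.440, lower at each day. At chr2:9857656-9857868 openness was high at both early days, 7.27 and 5.49, and stood at 1.65, 1.52 and 0.688 later. Here days 4 and 10 were still above the autosomal medians of those days, and day 20 was below.

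**Figure D2:**
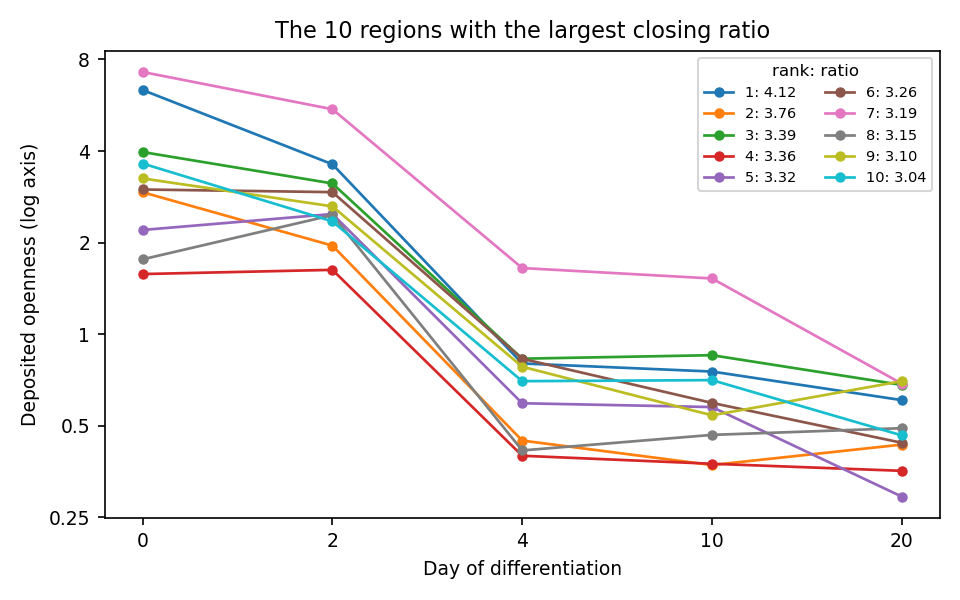
Deposited openness (log axis) by day for the 10 regions with the largest closing ratios, each line 1 region; days are evenly spaced, not to scale. Every line is level or moderately sloped from day 0 to day 2 and is lower at day 4, with ratios of 3.04 to 4.12.

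The regions that were most open at both early days were closed only in part at day 4. The highest was chr13:22009001-22009184, with 9.85 at day 0 and 6.86 at day 2, then 3.16, 0.978 and 1.69 at days 4, 10 and 20. The second, chr13:23503176-23505248, is 2073 bases long and had 7.71, 6.65, 3.16, 2.04 and 2.18. Both kept a day-4 value well above the autosomal median of 1.23, and their closing ratios were 2.13 and 2.07. At chr7:3336614-3336778 the values were 8.55, 5.34, 2.37, 1.88 and 1.87, and at chr10:52462373-52463310 they were 8.23, 5.35, 2.56, 2.55 and 1.98. At both of the last named, every late value was still above the autosomal median of its day.

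Most regions lay near the threshold of the rule. The median closing ratio was 2.17 (quartiles 2.07 and 2.35); 198 of the 348 lay between 2 and 2.2, 58 reached 2.5 and 10 reached 3. Another 419 regions met the other criteria with a ratio of 1.8 to 2. Just inside were chr5:128459862-128460776 at 2.0002 and chr16:28018487-28018835 at 2.0003. Just outside were chr16:79237216-79237639 at 1.9986 and chr3:142011377-142012741 at 1.9982. The latter had 4.89 and 4.82 at days 0 and 2, then 2.36, 0.481 and 1.60, so a region outside the rule can take the same course. Of the regions that failed a single criterion, 142 failed only the evenness of days 0 and 2, and in all 142 day 2 was the lower.

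Between days 0 and 2 the closing regions leaned downwards within the range the rule allows. The median ratio of day 2 to day 0 was 0.820 (quartiles 0.670 and 0.979). Day 2 was above day 0 in 73 of 348 (20.98%), against 32698 of the 61602 autosomal regions (53.1%) that were open and even at these days; the 348 are 0.565% of those 61602. In the 73 the median was 1.89, 2.254 and 0.715 on days 0, 2 and 4. In the other 275 it was 2.71, 1.96 and 0.789. Measured from day 2 to day 20 on a log2 scale, 91.2% of the median difference was in place at day 4 in the former and 79.7% in the latter. The rule requires a 2-fold lower day 4, and takes the smaller early day as its base, so these shares are largely set by it. Days 0 and 2 are both terms of the rule, so the downward lean between them is not independent of it either.

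**Figure D3:**
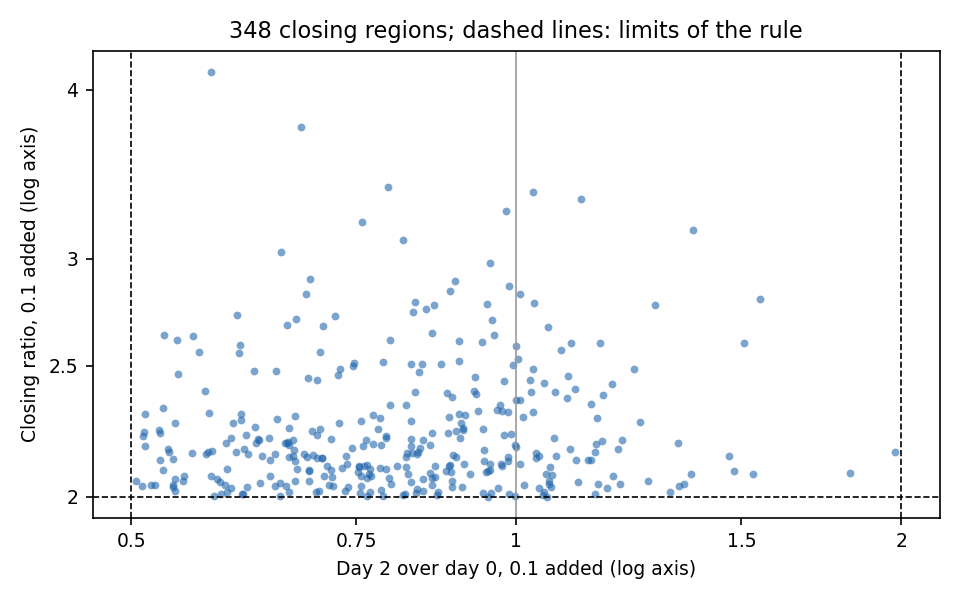
Ratio of day 2 to day 0 (x, log axis) against the closing ratio (y, log axis), 0.1 added, 1 point per closing region; dashed lines are the limits of the rule. Most points lie left of equality, with a median of 0.820, and just above the 2-fold limit, with a median of 2.17.

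The 3 late days mostly lay close together, within 1.5-fold of each other in 233 of 348 (66.95%), against 34.3% of the open and even regions. At day 20, 16 (4.60%) were 2-fold or more below day 4, against 6.2% of the open and even regions. Day 4 was the highest of the 3 late days in 226 of 348 (64.9%), against 39.8% of the open and even regions. Day 20 was the lowest in 173 (49.7%), near the 44.8% of the open and even regions. In 34 regions (9.77%) days 10 and 20 both stood above day 4, while day 4 was the lowest in 21.5% of the open and even regions. None of the 348 was 2-fold above day 4 at day 20, as 5.65% of the open and even regions were. The rule limits how high any late day can be, so these differences are in part set by the choice of regions. The strongest partial reopening was at chr1:157097978-157098202, with 4.38, 2.26, 0.516, 0.779 and 0.959 over the days. Slow closing was clearest at chr15:44430623-44431447, where days 0 and 2 were 4.41 and 4.43 and the later values 1.69, 0.683 and 0.555. At chr13:89563035-89563459 openness was 2.36 and 4.38 on the early days and 1.08, 0.213 and 0.417 on the late ones.

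Closing after day 2 was the less frequent course among the regions lost from day 0. Of all autosomal regions, 20352 (11.9%) had openness of 1 or more at day 0 and stood at least 2-fold above each of days 4, 10 and 20. In 16066 of these (78.9%, and 9.4% of all autosomal regions) day 2 was already at least 2-fold below day 0. Day 2 was within 2-fold of day 0 in 4286 (21.1%), and 348 (1.71%) also stayed 2-fold above the late days at day 2, as the rule asks. By rules of the same form, 901 regions (0.527%) were open at day 2 only, 3451 (2.02%) at days 2 and 4 and 213 (0.125%) at days 4, 10 and 20. With 1 value per day, none of these differences can be set against replicate error.

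Length was not used by the rule. The median length was 563 bases (142 to 2294), against 421 in all autosomal regions, 461 in the open and even ones and 527 in those open at day 0 only. Regions under 250 bases made up 15.2% of the 348 and 25.5% of all autosomal regions. By the smaller of the early values, the share of open and even regions that closed was 0.195% at 1 to 1.5, 1.45% at 2 to 3 and 0.416% at 4 or more. The smaller early value is itself a term of the rule, which asks for lower late values where it is small, so nothing is read from these shares.

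Position was also not used. The median distance to the nearest other region was 5016 bases, against 3611 over all autosomal regions, and 73.3% had a neighbour within 10 kb, against 82.2%. The nearest region had a median day 2 to day 4 ratio of 1.19, against 1.01, and in 69 of 348 (19.8%) it was open at day 0 only, against 9.34%. In 4 (1.15%) it was itself a closing region, against 0.192% of all autosomal regions. Within 25 kb of another closing region lay 11 of the 348, in 5 groups. The largest group held 3 of the 8 regions in chr13:21998613-22023537, among them the most open region above. A wider window there, chr13:21000001-24000000, held 6 of its 174 regions (3.45%), the most of the 812 windows of that size; it was chosen after its values were seen.

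Chromosome 10 held 29 closing regions of 9785 (0.296%, exact 95% interval 0.199 to 0.425) and chromosome 7 held 27 of 9237 (0.292%). Chromosome 19 held 2 of 3992 (0.0501%, interval 0.00607 to 0.181). The intervals cover counting error only, and regions are not replicates of a condition. The median log2 difference of day 4 from day 2 over all regions of a chromosome was -0.0885 on chromosome 10 and 0.1 on chromosome 19, the lowest and highest of the autosomes, but 0.00423 on chromosome 7. The part of these shifts in the shares was not tested. The X chromosome, which the rule leaves out, had 55 of 3107 regions (1.77%) meeting the other criteria. The median over all its regions was 1.14 at day 0 and higher, at 1.63, at day 2. It then stood at 1.23 at day 4, still above day 0, and at 0.71 and 0.649 at days 10 and 20. The part of this movement in the X share was not tested.

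**Figure D4:**
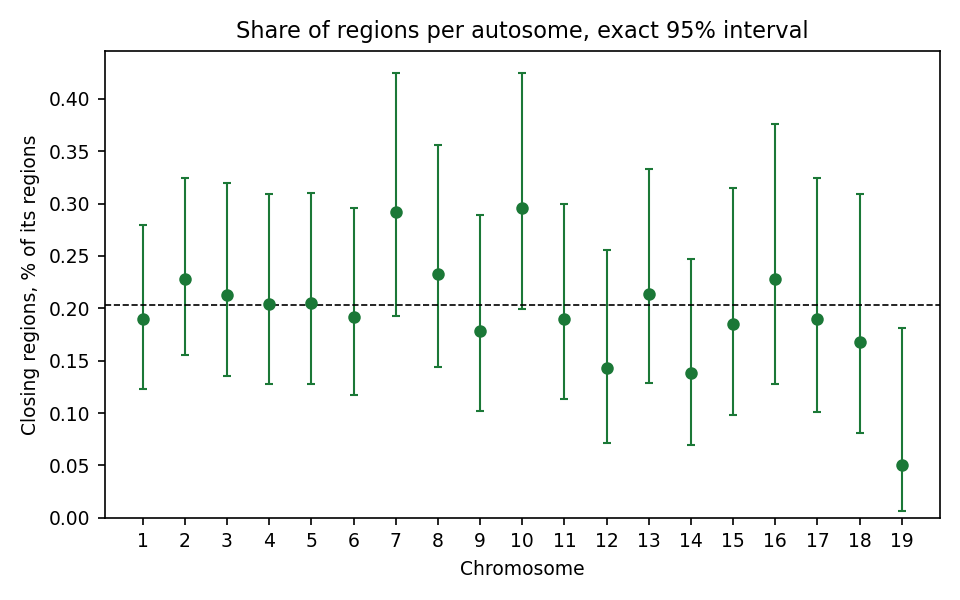
Closing regions as a percentage of each autosome's regions (points, axis from 0) with exact 95% intervals; the dashed line is the share over all autosomes, 0.204%. Chromosome 10 is highest at 0.296% and chromosome 19 lowest at 0.0501%, where the interval lies below the line; the other intervals include it.

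RNA, a readout the rule did not use, was searched for genes with the same course. A gene was counted where limma called it lower by 1 log2 unit or more (Benjamini-Hochberg adjusted p under 0.05) at days 4, 10 and 20 against both days 0 and 2, and where days 0 and 2 differed by less than 1. It held for 307 of 14982 genes (2.05%), in data where 74.1% of genes were called between days 0 and 2. Against day 2, 72% were called at day 4, 82.1% at day 10 and 85.6% at day 20. No gene could be paired with a region by position, so this is a comparison of courses only. Of the 12 such genes with the highest FPKM level at the early days, most encode ribosomal proteins, among them Rps21, Rpl36, Rps12, Rps2, Rpl18, Rps18, Rpl26, Rpl38, Rpl13 and Rpl8. The 12 were ranked by level, and only 18 of the 307 have ribosomal protein symbols, while others include Mcm3, Cdk1, Plk1 and Zscan4f. Npm1, a nucleolar chaperone of ribosome assembly, is also among the 12. These depended on scaling: with all libraries brought to the same sum the count was 130 and held Rps12, Rps2 and Npm1 of the 12, and with quantile normalization it was 452 and held none of them. Ribosomal protein genes also have near-identical copies, so their levels are uncertain.

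Of the 118 genes tested in 8 lists made up mostly of regulators, 4 took this course (3.39%, close to the 2.05% of all genes). They were Sall4, Zic2, Dnmt3b and Nr6a1. Sall4, a zinc finger factor of the pluripotency network, had a mean of 103 FPKM ± 6.6 (SD, n = 7) at day 0. It stood at 61.66, 60.88 and 57.41 FPKM in the libraries of day 2 and at 10.92, 13.03 and 12.1 at day 4. At day 10 the mean was 3.31 FPKM ± 0.218 (n = 5) and at day 20 it was 2.16 ± 0.329 (n = 4). No library of day 4 or later overlapped those of days 0 and 2, and the limma log2 change from day 2 to day 4 was -2.23 ± 0.08 (SE, adjusted p = 3.9e-16). Sall4 kept this course under both other scalings and with either set of day-0 libraries described next.

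The 7 day-0 RNA libraries fell into a set of 3 (replicates 1 to 3) and a set of 4 (replicates 4 to 7), a split seen in the data and not given by the labels. Dnmt3b, a de novo DNA methyltransferase, was at 47.49 to 50.12 FPKM in the first set and 33.61 to 36.05 in the second. It then stood at 21.3 ± 0.398 (n = 3) at day 2 and 5.47 ± 0.225 (n = 3) at day 4, a limma log2 change of -1.79 ± 0.12 (adjusted p = 2.69e-11). Against the first set alone its day-2 level was lower by more than the rule allows, with a log2 difference of -1.15. Zic2, a zinc finger factor of epiblast and neural tissue, showed the reverse, at 14.45 to 16.2 FPKM in the first set and 25.72 to 30.18 in the second. Its day-2 mean was 11.4 ± 0.907 FPKM and its day-4 mean 1.40 ± 0.127 (limma log2 change -2.37 ± 0.22, adjusted p = 2.82e-09), and against the second set alone the log2 difference of day 2 was -1.23. Nr6a1, the germ cell nuclear factor that represses Pou5f1, went from 25.4 ± 1.91 FPKM at day 2 to 10.7 ± 0.431 at day 4 (limma log2 change -1.18 ± 0.10, adjusted p = 5.93e-10), but was not counted with libraries rescaled to the same sum.

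All 18 listed pluripotency factors were already called lower at day 2 than at day 0, with a median log2 change of -3.08 against 0.07 over all genes, of which 32.1% were called lower. From day 2 to day 4, 15 fell and Zfp281 rose, against 34% and 38% of all genes, with a median of -1.37. Pou5f1, which encodes OCT4, went from 865 FPKM ± 116 (n = 7) at day 0 to 37.9 ± 3.38 at day 2 and 3.14 ± 0.121 at day 4. Sox2, a partner of OCT4 that is also a neural progenitor factor, dropped from 245 ± 18.6 to 96.4 ± 1.38 FPKM by day 2. At day 4 it stood at 84.3 ± 0.911 FPKM, a limma log2 change of -0.19 ± 0.06 (adjusted p = 0.0119) whose sign turns with libraries rescaled to the same sum. Klf4, another pluripotency factor, was at 14.5 ± 1.23 FPKM at day 2 and 15.6 ± 1.61 at day 4, with a limma adjusted p of 0.611.

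**Figure D5:**
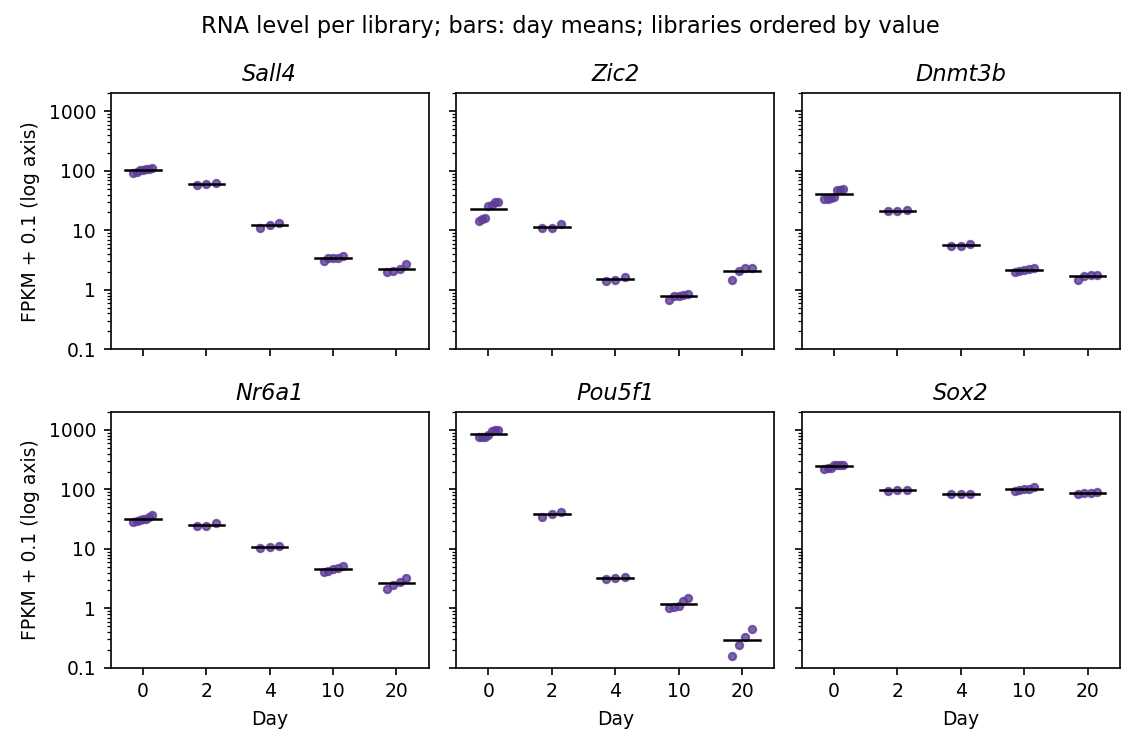
FPKM + 0.1 (log axis) by day for 6 genes, 1 point per library (ordered by value within a day) and a bar at the day mean. Sall4, Zic2, Dnmt3b and Nr6a1 are lower from day 4 on, while Pou5f1 goes from a mean of 865 to 37.9 FPKM by day 2 and Sox2 stays between means of 84.3 and 100.1 FPKM after day 2.

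Genes in lists made up mostly of factors and complexes that hold or close chromatin moved in both directions between days 2 and 4. So did all genes, of which 38% were called higher and 34% lower. The AP-1 and TEAD, CTCF and NuRD lists below were near or under those shares. Of 10 primed epiblast genes, among them the secreted ligand Fgf5, 6 fell and 3 rose (median log2 change -0.48, against 0.01 over all genes). Of 15 retinoic acid and caudal factors 9 rose and 5 fell (median 0.90). Of 12 neural progenitor genes, among them the filament gene Nes, 8 rose and 4 fell (median 1.87). Of 15 AP-1 and TEAD genes 5 rose and 4 fell, with a median of 0.06 that turns to -0.13 with quantile normalization. Members of this list moved far in both directions. Jun was at 14.16 to 15.02 FPKM in the libraries of day 2 and at 54.31 to 54.71 at day 4. Jund was at 110.2 to 117.25 FPKM at day 2 and at 300.92 to 310.77 at day 4. Tead4, a partner of the coactivator YAP1, fell by 1.303 on the log2 scale in limma (SE 0.159, adjusted p = 2.1e-07). Of 9 CTCF and cohesin genes 2 rose and 2 fell with a median of 0.01, while 5 rose and none fell with libraries rescaled to the same sum. Ctcf itself, the main insulator factor, stood at 62.0 ± 3.31 FPKM at day 2 and 62.5 ± 0.969 at day 4 (limma adjusted p = 0.836). With libraries rescaled to the same sum Ctcf was called higher at day 4, by 0.30 on the log2 scale against a median of 0.22 over all genes. Later it was lower, at 36.82 to 40.14 FPKM in the libraries of day 10 and 31.74 to 36.05 at day 20.

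Of 23 subunits of the BAF remodelling complex, which moves nucleosomes, 15 rose and 4 fell, with a median of 0.76 against 0.01 over all genes. Smarca4, its ATPase, rose from 68.1 ± 2.78 to 116 ± 2.24 FPKM, and Actl6b, its neuronal actin-like subunit, from 0.140 ± 0.105 to 23.9 ± 1.03. Actl6a, the progenitor counterpart of Actl6b, fell by 0.44 on the log2 scale. As deposited, the rise of the list did not last. At day 10 against day 2, 10 of the 23 BAF genes were higher and 13 lower (median -0.29, against 0.18 over all genes). Of all genes 82.1% were called between these days, and 59.1% of those called were higher. With libraries rescaled to the same sum the direction turned, with 11 BAF genes higher and 6 lower (median 0.16, against 0.54 over all genes). Of 16 genes of the NuRD and LSD1 complexes, which remove histone acetyl and methyl marks, 7 rose and 5 fell from day 2 to day 4, with a median of 0.01. Chd3 rose from 30.6 ± 1.92 to 168 ± 4.50 FPKM, and Hdac1 fell from 121 ± 1.42 to 73.8 ± 1.09. All of these changes from day 2 to day 4 were called by limma over all genes.

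Markers of other cell types moved between days 2 and 4, when 38% of all genes were called higher and 34% lower. Some had also moved before day 2, when 74.1% of all genes were called. At day 0 neuron markers summed to 108 to 151 FPKM, above their sum at day 2. Of the 7, however, 4 were called higher at day 2 and 2 lower (median log2 change 0.21, against the direction of the sum). Endoderm markers summed to 37.7 to 111 FPKM at day 0, and 8 of 9 were called higher at day 2 (median 2.24). The 7 neuron markers all rose from day 2 to day 4, with a median log2 change of 5.89, and their summed level was 22.3 to 22.9 FPKM in the libraries of day 2 and 1764 to 1782 at day 4. Glial markers summed to 21.2 to 25.7 FPKM at day 2 and 249 to 252 at day 4, with 3 of 7 called higher and 1 lower (median log2 change -0.02, against the direction of the sum). Endoderm markers summed to 437 to 457 and then 197 to 214 FPKM, with 5 of 9 lower (median -1.08). Mesenchyme markers summed to 37.3 to 40.9 and then 23.4 to 25.8 FPKM, with 4 of 8 lower (median -0.37) and 1 listed at 0 in all day-4 libraries. Pluripotency factors summed to 306 to 313 FPKM at day 2 and 149 to 158 at day 4, and were back at 283 to 330 at day 20. The part of these shifts in the openness of the closing regions was not tested.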

How the data were processed

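The authors deposited 1 openness signal per region and day; how the ATAC libraries of a day were pooled and scaled is not given in the sources used here, and the read depth behind each value is unknown. The build, mm9, is per the submitters' processing notes, and starts were converted to count from 1. The authors also deposited a table of RNA values, taken as FPKM from their sums (472122 to 678222 per library); the processing notes name RSEM without a version. For RNA, log2(FPKM + 1) was fitted with group means over 22 libraries and the empirical Bayes trend in limma (version 3.58.1; R version 4.3.3), leaving 17 residual degrees of freedom. A gene entered if 3 or more libraries reached 1 FPKM, with Benjamini-Hochberg adjustment over all 14982, 2-sided at 0.05. A log2 change on this scale understates low genes. Regions were counted with pandas 2.3.3 and not tested, having no replicates. The regions and gene lists were chosen with earlier results of these data known. Regions are named by rank (closing ratio, early level, distance from the threshold, ratio of day 20 to day 4, length, grouping), and the text gives a selection of them. Genes are the 12 most abundant of the same course and list members; which list members carry values was picked by hand with their values known. 1 gene that this rule names is not reported here. The steps were tested on simulated data.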

Additional observations from a re-analysis of the deposited data

Results flagged for a closer look

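In each of the 32 genes followed one by one, the libraries of days 0, 10 and 20 were searched for a highest or lowest library far from the others by Dixon's criterion, 96 groups in all, of which chance would mark about 1 in 20. Replicate 3 of day 10 was the lowest in 3 genes. Rps18 was at 827.69 FPKM there, against 907.43 to 932.45 in the other libraries of that day. Rpl8 was at 647.35 FPKM, against 739.42 to 773.54. Hdac1 was at 31.45 FPKM, against 34.44 to 35.35. Smarca4 was at 58.52 FPKM in replicate 4 of day 0, against 54.24 to 56.07 in the others. Actl6b was at 0.17 FPKM in replicate 1 of day 0, against 0 to 0.03, and at 7.52 FPKM in replicate 1 of day 20, against 5.4 to 5.7.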

How the results depend on the processing

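The number of closing regions depends on the rule. It was 72 with 0.5 added to openness in place of 0.1 (66 shared with the 348), 2728 at a 1.5-fold closing threshold, 10 at 3-fold and 166 at a minimum of 2 on the early days. It stayed within 1.5 times 348 with 0.05 added (422), with days 0 and 2 within 1.5-fold (258) or without that limit (490), over all chromosomes (404), and over regions of 250 bases or more (295), the last chosen after seeing the data. The count of genes with the same course was 130 with libraries rescaled to the same sum, and 302 to 317 when 1 library was left out. Leaving out 1 library gave 10437 to 11154 called genes for day 2 against day 0, 10218 to 10838 for day 4 against day 2, 11842 to 12342 for day 10 and 12415 to 12857 for day 20. From day 2 to day 4, Klf4 turned to -0.1347 with quantile normalization and Sox2 to 0.09903 with rescaled sums. Ctcf turned to -0.02407 without day 2 replicate 1 (0.05178 without replicate 2). With rescaled sums Klf4 (0.3701), Ctcf (0.3025) and Rad21 (0.3286), not called as deposited, were called higher. The cause of these differences was not tested. Of the genes called from day 2 to day 4, 52.8% were higher as deposited, 43.8% with quantile normalization and 68.4% with rescaled sums, which moved the median of all genes to 0.22. For day 10 these shares were 59.1%, 45.9% and 75.3%, and for day 20 they were 60.5%, 45.2% and 68.9%. Replicate numbers did not pair the libraries (correlations of deviations -0.146 to 0.219 over 34 pairs; 2 of 22 libraries correlated best with their own number). With the replicate block the counts were 10954, 10956, 12303 and 12889, and 304 for the same course. The planned search for genes nearest to the regions, with its alternatives of 2 kb and 50 kb, was not run, since no annotation of mm9 was used here.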
